A study of Mus musculus with 6 samples.

Results

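The enzymes that build, sulfate and trim glycosaminoglycan chains were followed in auditory nerve of Vcan knockout and wildtype mice. Vcan encodes versican, a proteoglycan of the extracellular matrix that itself carries chondroitin sulfate chains. The set holds 41 genes, chosen by symbol from the 24062 gene symbols of the deposited table, and all 41 were found there. It divides into 5 enzymes of the linker region, 2 related glucuronyltransferases of the HNK-1 epitope, 16 enzymes of the chondroitin and dermatan branch and 18 of the heparan branch. RNA sequencing gave 3 Vcan knockout and 3 wildtype libraries. All 6 animals were young adults of the C57BL/6 strain per the labels, and each library pooled the microdissected left and right nerve of 1 mouse. The labels do not give the knockout allele, any Cre driver or the part of Vcan that was altered.

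Glycosaminoglycans are unbranched sugar chains attached to core proteins in the Golgi. A short linker is first built on a serine of the core protein, and the next sugar added decides whether the chain becomes chondroitin or heparan sulfate. Chondroitin chains can be epimerised to dermatan sulfate, both chain types are sulfated at defined positions, and heparan sulfate is trimmed again outside the cell by endosulfatases. In nerve, chondroitin sulfate chains are carried by versican and its relatives in the matrix around nodes of Ranvier, and heparan sulfate chains by syndecans, glypicans and basal lamina proteoglycans.

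The libraries held 74530860 to 92513887 gene counts. Vcan was counted 413, 249 and 248 times in the knockout libraries, against 697, 864 and 626 times in the wildtype libraries. At 3.67 ± 1.54 CPM in knockout and 8.43 ± 1.15 CPM in wildtype nerve (counts scaled to a common library size; SD, n = 3 each), the knockout libraries lay below all wildtype libraries, in the direction of their labels. The log2 fold change of Vcan was -1.2 (SE 0.32), with an adjusted p of 0.558 in edgeR and 0.039 in DESeq2. Markers of myelinating Schwann cells summed to 7200 to 12900 CPM and of spiral ganglion neurons to 3550 to 7050 CPM over all 6 libraries. Markers of oligodendrocytes, astrocytes, fibroblasts, chondrocytes and bone cells were counted as well. Wildtype replicate 3 stood apart from the rest, with a correlation of 0.9475 to 0.9566 with the other libraries (log2 CPM). It was the highest or lowest library for 21 of the 41 enzymes (51.2%), and for 54.6% of all 16722 genes tested. Knockout replicate 3 was the highest or lowest for 20 of the 41 (48.8%), and for 32.7% of all genes. Knockout replicate 1 correlated more closely with wildtype replicate 1 (0.9768) than with knockout replicates 2 (0.9611) and 3 (0.9623). Knockout replicates 2 and 3 correlated at 0.9855 with each other. In bulk tissue, fewer cells of a type and less RNA per cell cannot be told apart, and this holds for every value below.

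Upstream sequences are shown for Hs3st1 and Hs3st2, a pair of heparan sulfotransferases that place the same kind of sulfate. The libraries of the genotypes did not overlap for Hs3st1, while Hs3st2 varied widely within each genotype. Each sequence runs 5′ to 3′ on the strand of the gene and covers 240 bases, ending 10 bases before the first listed transcript start (RefSeq, GRCm38.p6), which lies inside the outer bounds of both genes. Hs3st1 is on the minus strand at chr5:39644642-39644881 and Hs3st2 on the plus strand at chr7:121392046-121392285. Capitals mark CpG dinucleotides.
Hs3st1: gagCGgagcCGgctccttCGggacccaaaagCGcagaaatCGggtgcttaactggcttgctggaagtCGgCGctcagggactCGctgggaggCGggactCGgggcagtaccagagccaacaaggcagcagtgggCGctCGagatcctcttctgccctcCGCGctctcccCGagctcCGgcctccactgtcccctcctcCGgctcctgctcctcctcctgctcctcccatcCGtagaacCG
Hs3st2: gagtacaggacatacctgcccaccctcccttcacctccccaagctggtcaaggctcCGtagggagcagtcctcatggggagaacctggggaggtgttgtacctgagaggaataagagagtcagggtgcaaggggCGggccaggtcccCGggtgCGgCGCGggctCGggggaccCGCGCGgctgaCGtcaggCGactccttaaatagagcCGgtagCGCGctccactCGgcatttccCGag

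Both are CpG-rich, with 19 CpG in the Hs3st1 and 17 in the Hs3st2 sequence, against a median of 5 over the first listed promoter of 27025 genes. Of the 41 enzymes 32 were matched in the promoter table, and their median was 15 CpG. Xylt1, B3gat2, Chsy3, Csgalnact1, Ext1, Extl3, Ndst1, Ndst4 and Sulf1 were not matched. The GC box GGGCGG, searched on both strands, was found in 20 of the 32 (62.5%), in Hs3st2 among them and not in Hs3st1, and in 31.5% of all promoters. It was in 13 of 14 chondroitin promoters (92.9%) and in 6 of 13 heparan promoters (46.2%). The median GC content was 64.6% in the 32 and 52.1% over all promoters, and these shares were not compared at equal GC content. The TATA box TATAAA was found in 2 of the 32 (6.25%) and in 12.7% of all promoters. The cAMP response element TGACGTCA, which reads the same on both strands, was found in Hs3st2 and Chpf, and in 1.5% of all promoters. These are matches of letters in this window, and none was tested for binding.

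No enzyme of the set passed the test for a difference between the genotypes. Of the 41 enzymes, all of which passed the filter on low counts, 0 passed an adjusted p of 0.05 (Benjamini-Hochberg, over the 16722 genes that the quasi-likelihood test of edgeR took, of which 0.138% passed). DESeq2 also called 0 of the 41, and 1.43% of all genes. The authors' deposited table holds 1.34% of genes under the same threshold, and its lowest adjusted p for a member was 0.0839, for Chsy3. At an unadjusted p under 0.05 there were 3 of 41 in edgeR (5.2% of all genes) and 4 in DESeq2 (6.64%). The 3 in edgeR were Chsy3 and Hs3st1, higher in knockout nerve (2.56% of all genes), and Sulf1, lower (2.64%). The groups did not overlap for 5 of the 41 (12.2%), 3 higher (5.42% of all genes) and 2 lower (4.93%) in knockout nerve, close to the 10.3% in either direction over all genes. The median log2 fold change of knockout over wildtype was -0.01 over the 41 enzymes and -0.01 over all genes tested, with 20 enzymes above 0 and 21 below. For 23 of the 41 the fold change lay within 0.2 of 0 on the log2 scale.

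**Figure D1:**
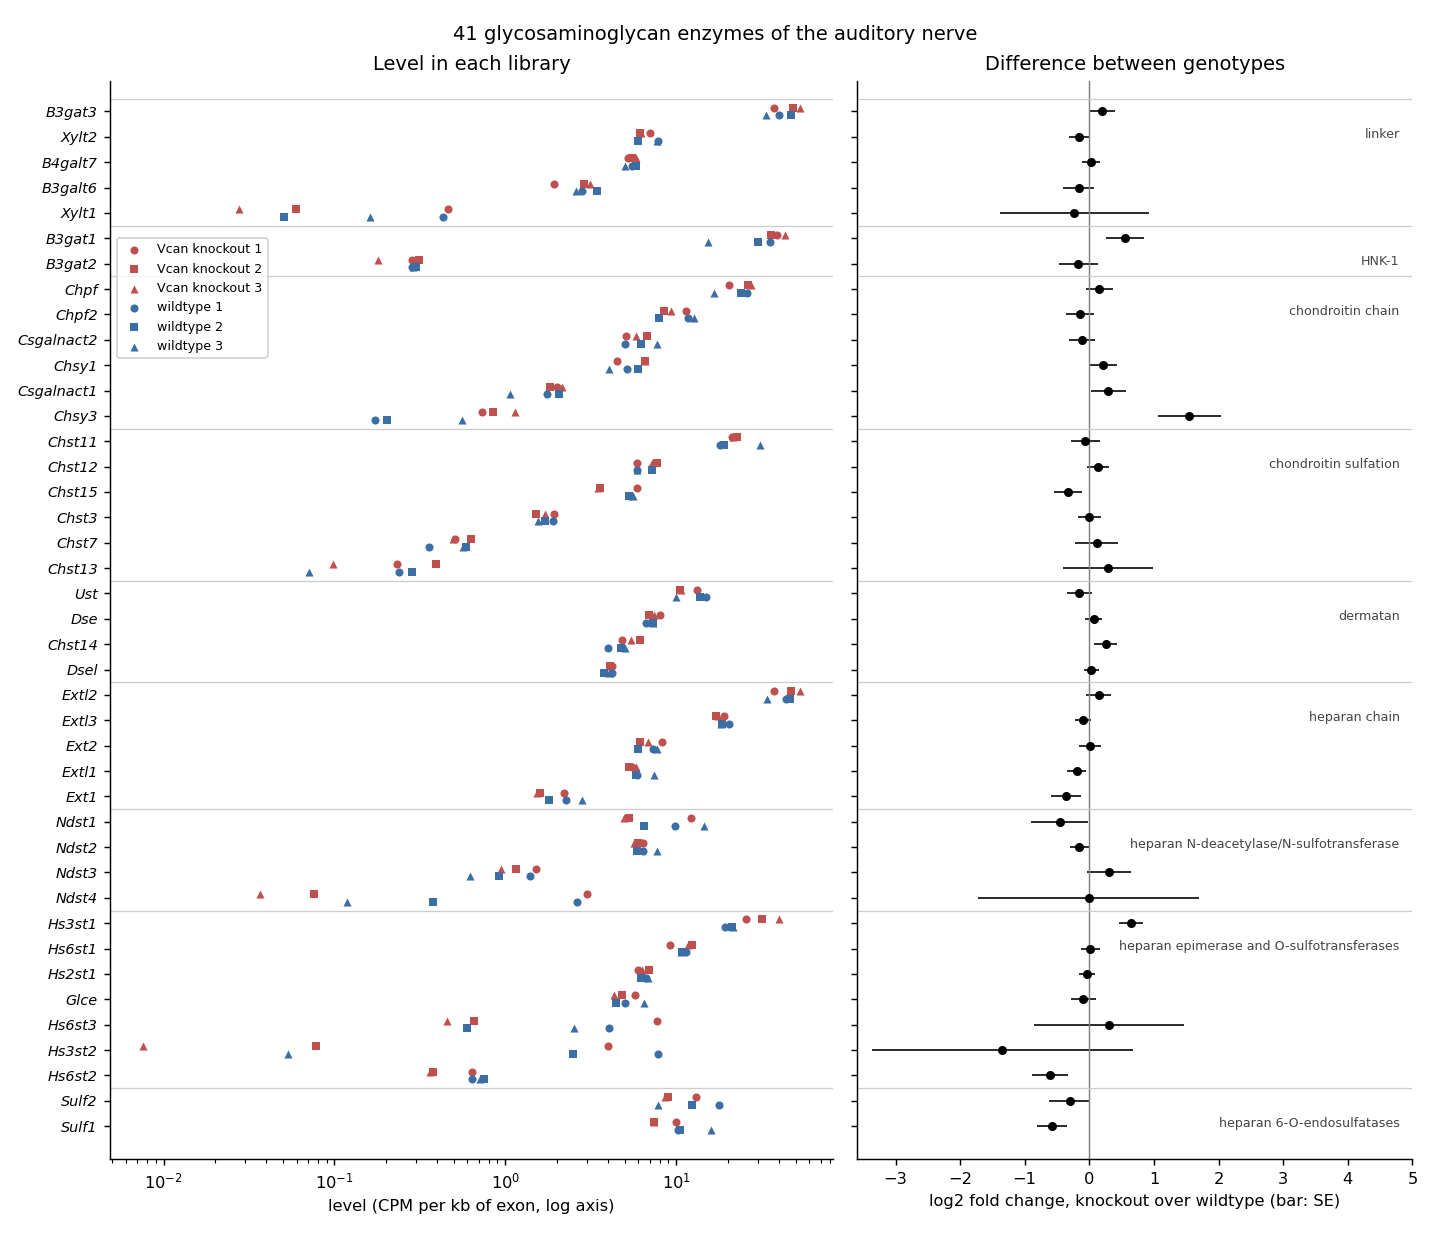
Level of each of the 41 enzymes in each library (left, CPM per kb of exon on a log axis; red, Vcan knockout; blue, wildtype) and log2 fold change of knockout over wildtype with its SE (right), grouped by role. Most fold changes sit near 0; Chsy3 is farthest above it at 1.55, and Hs3st2 farthest below at -1.35 with an SE of 2.02.

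The linker is started by a xylosyltransferase, and the nerve used mainly Xylt2 transcripts. Xylt2 was at 27.8, 24.3 and 24.8 CPM in knockout nerve, against 31.3, 23.7 and 30.7 CPM in wildtype nerve. Per kb of exon, the ratio of Xylt1 to Xylt2 was 0.0267 on average in knockout and 0.028 in wildtype libraries. Xylt1 itself was at 4.44, 0.574 and 0.267 CPM in knockout nerve, against 4.15, 0.490 and 1.56 CPM in wildtype nerve, so the replicate 1 libraries of both genotypes were the highest. The galactosyltransferase B4galt7 was at 15.2, 15.9 and 16.9 CPM in knockout nerve, against 15.9, 16.8 and 14.6 CPM in wildtype nerve. B3galt6, which adds the next galactose, averaged 8.41 ± 1.99 CPM in knockout and 9.40 ± 1.41 CPM in wildtype nerve (SD, n = 3 each). B3gat3, which adds the closing glucuronic acid, was the second most abundant enzyme of the set per kb. It was at 96.2, 125 and 137 CPM in knockout nerve, against 104, 122 and 86.5 CPM in wildtype nerve, and the groups overlapped. Of the 5 linker enzymes 2 had a positive and 3 a negative fold change, none under an unadjusted p of 0.05, and the median was -0.16.

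B3gat1 and B3gat2 are relatives of B3gat3 that make the HNK-1 carbohydrate of nerve glycoproteins. B3gat1 (gene identifier 76898, chromosome 9, 26733723 to 26761350, GRCm38) was at 192, 179 and 216 CPM in knockout nerve, against 176, 149 and 75.8 CPM in wildtype nerve. All knockout libraries lay above all wildtype libraries, by little for wildtype replicate 1 and by most for replicate 3. The log2 fold change was 0.55 (SE 0.30) and did not pass (edgeR adjusted p = 1.00, unadjusted p = 0.113). Without wildtype replicate 3 it was 0.26. In that library the neuron markers, 3 of 6 with a negative fold change over all libraries, summed to 3550 CPM, against 6760 CPM or more in the other wildtype libraries and 6170 to 6410 CPM in the knockout libraries. The part of this difference in the B3gat1 value was not tested. B3gat2 was low, at 1.61 ± 0.437 CPM in knockout and 1.81 ± 0.0534 CPM in wildtype nerve (SD, n = 3 each), and 33.5% of its exon bases are also covered by exons of Smap1 on the opposite strand. Since the strand setting of the counting is not given in the sources used here, its value is uncertain. Chst10, the sulfotransferase that completes the HNK-1 epitope, averaged 18.2 ± 2.47 CPM in knockout and 15.7 ± 5.65 CPM in wildtype nerve (SD, n = 3 each).

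Chondroitin chains are begun by Csgalnact1 and Csgalnact2 and extended by the synthases Chsy1 and Chsy3 together with the polymerising factors Chpf and Chpf2. Chpf was the most abundant of these transcripts per kb, at 79.1, 102 and 106 CPM in knockout nerve, against 100, 93.1 and 64.3 CPM in wildtype nerve. The groups overlapped widely. Chpf2 averaged 54.4 ± 8.51 CPM in knockout and 60.3 ± 14.1 CPM in wildtype nerve (SD, n = 3 each), with 44.1% of its exon bases shared with other genes, mostly Smarcd3 on the opposite strand. Chsy1 averaged 24.6 ± 4.90 and 21.2 ± 4.04 CPM, Csgalnact1 10.2 ± 0.838 and 8.29 ± 2.63 CPM, and Csgalnact2 31.9 ± 4.57 and 34.5 ± 7.38 CPM in knockout and wildtype nerve (SD, n = 3 each).

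Chsy3 had the highest fold change of the set. The gene (gene identifier 78923, chromosome 18, 59175340 to 59411336, GRCm38) was counted 403, 567 and 709 times in the knockout libraries, against 104, 132 and 344 times in the wildtype libraries. These counts are 5.31, 6.14 and 8.23 CPM in knockout nerve, against 1.25, 1.47 and 4.02 CPM in wildtype nerve. The groups did not overlap, and wildtype replicate 3 lay nearer to the knockout libraries than to the other wildtype libraries. Its log2 fold change of 1.55 (SE 0.49) did not pass correction (edgeR adjusted p = 0.703, unadjusted p = 0.017; DESeq2 adjusted p = 0.0961). It was 2.26 without wildtype replicate 3 and 1.26 without wildtype replicate 1. Even so, Chsy3 was a minor synthase: per kb it was at 0.155 ± 0.0222 of Chsy1 in knockout and 0.0682 ± 0.0598 of Chsy1 in wildtype libraries (SD, n = 3 each). The osteoblast markers (3 of 5 with a negative fold change) summed to 151, 214 and 258 CPM in knockout nerve, against 142, 114 and 235 CPM in wildtype nerve, with the same order of libraries within each genotype except for wildtype replicates 1 and 2. The part of bone cells in the Chsy3 value was not tested.

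**Figure D2:**
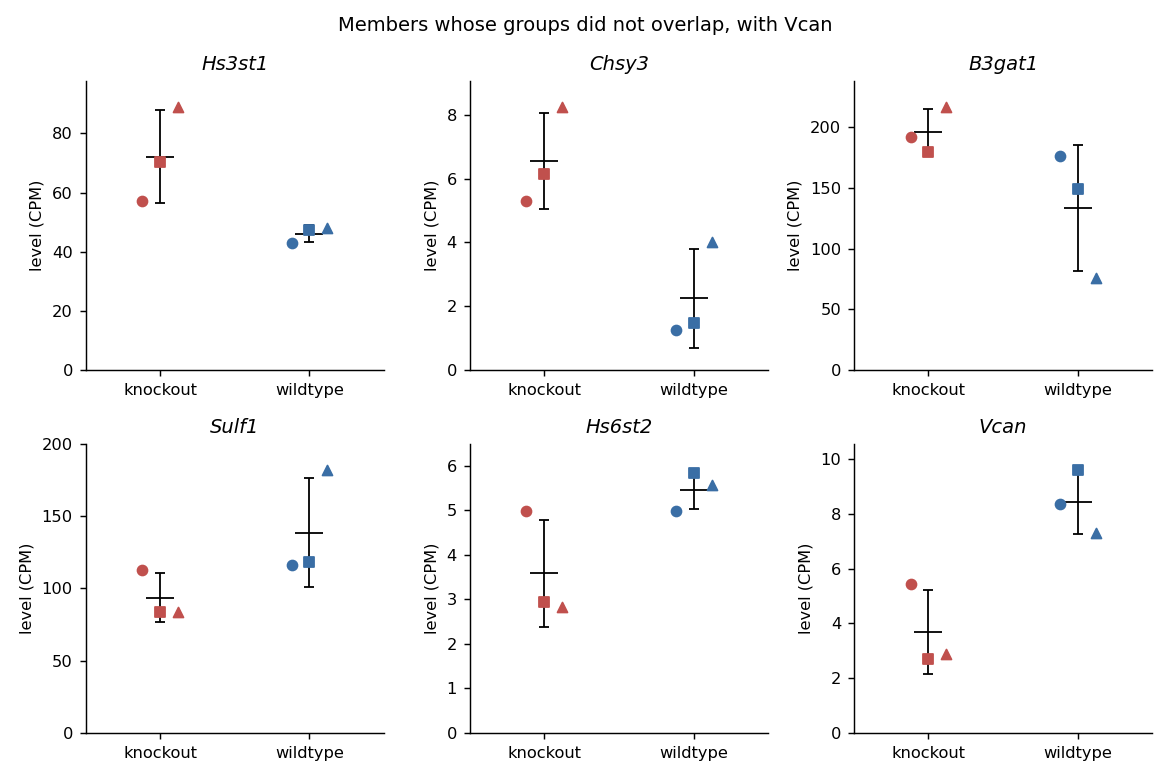
CPM in each library for the 5 enzymes whose groups did not overlap, and for Vcan (red, Vcan knockout, left; blue, wildtype, right; circle, square and triangle, replicates 1 to 3; bars, mean and SD over 3 libraries). Hs3st1, Chsy3 and B3gat1 were higher in every knockout library and Sulf1, Hs6st2 and Vcan lower; for Hs6st2 the closest libraries were 4.97 CPM in knockout and 4.98 CPM in wildtype nerve.

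The chondroitin sulfotransferases place sulfate on N-acetylgalactosamine, Chst11, Chst12 and Chst13 at carbon 4 and Chst3 and Chst7 at carbon 6, while Chst15 adds a further sulfate at carbon 6 of 4-sulfated units. Chst11 led, at 117, 125 and 119 CPM in knockout nerve, against 99.9, 105 and 171 CPM in wildtype nerve. Wildtype replicate 3 was the highest, and the knockout libraries lay between the wildtype values. Chst12 was at 14.0, 18.3 and 17.1 CPM in knockout nerve, against 14.0, 17.0 and 13.9 CPM in wildtype nerve. Per kb, the summed transcripts for sulfation at carbon 4 were 12.9 ± 1.52 times those for carbon 6 in knockout and 13.2 ± 3.60 times in wildtype libraries (SD, n = 3 each), so that balance differed by less than the spread between libraries. Chst3 had the same mean in both genotypes, at 11.1 ± 1.32 CPM in knockout and 11.1 ± 1.11 CPM in wildtype nerve (SD, n = 3 each), and Chst7 averaged 1.20 ± 0.169 CPM in knockout and 1.11 ± 0.277 CPM in wildtype nerve. Chst13 was counted at most 60 times in a library. Chst15 was at 39.6, 24.3 and 23.6 CPM in knockout nerve, against 36.1, 36.0 and 37.9 CPM in wildtype nerve. Knockout replicates 2 and 3 were the lowest and knockout replicate 1 the highest, and the fold change of -0.33 (SE 0.22) did not pass (edgeR adjusted p = 1.00). Without knockout replicate 1 it was -0.61, with an adjusted p of 0.308 in edgeR.

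Dermatan sulfate is formed when Dse and Dsel epimerise glucuronic to iduronic acid, after which Chst14 and Ust add sulfate. The epimerases were among the most even enzymes of the set. Dsel was at 24.1, 23.6 and 23.2 CPM in knockout nerve, against 24.3, 21.9 and 23.2 CPM in wildtype nerve, the narrowest range of all 41 enzymes, with the highest library 1.11 times the lowest. Dse was at 40.2, 34.4 and 36.8 CPM in knockout nerve, against 33.1, 36.6 and 36.4 CPM in wildtype nerve. Ust, the most abundant of the group per kb, was at 61.3, 49.1 and 49.6 CPM in knockout nerve, against 68.9, 63.4 and 45.9 CPM in wildtype nerve. Chst14 averaged 11.4 ± 1.38 CPM in knockout and 9.56 ± 1.11 CPM in wildtype nerve (SD, n = 3 each). None of the 4 had groups that did not overlap.

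Heparan chains are polymerised by Ext1 and Ext2, with Extl1, Extl2 and Extl3 as related transferases of which Extl3 starts the chain. Extl2, which can end a chain at the linker stage, was the most abundant enzyme of the set per kb. It was at 129, 161 and 183 CPM in knockout nerve, against 152, 161 and 116 CPM in wildtype nerve, and the groups overlapped. Extl3 was at 116, 103 and 107 CPM in knockout nerve, against 124, 113 and 112 CPM in wildtype nerve. Ext2 averaged 51.9 ± 7.98 and 51.3 ± 6.74 CPM, Extl1 24.0 ± 1.24 and 27.6 ± 3.80 CPM, and Ext1 14.4 ± 3.05 and 18.5 ± 4.10 CPM in knockout and wildtype nerve (SD, n = 3 each). The 5 fold changes ran from -0.36 to 0.14, with none under an unadjusted p of 0.05.

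The N-deacetylase/N-sulfotransferases open heparan chains to all later sulfation. Ndst1 and Ndst2 were the main forms. Ndst1 was at 101, 43.7 and 40.8 CPM in knockout nerve, against 81.6, 53.4 and 120 CPM in wildtype nerve. Knockout replicate 1 and wildtype replicates 1 and 3 were high and the other 3 libraries low. Knockout replicates 2 and 3 lay below all wildtype libraries, and knockout replicate 1 above all but wildtype replicate 3. The fold change was -0.46 (SE 0.44), and without knockout replicate 1 it was -1.01 (edgeR unadjusted p = 0.0267, adjusted p = 0.455). Ndst2 was even, at 29.0, 27.3 and 25.7 CPM in knockout nerve, against 29.2, 26.9 and 35.0 CPM in wildtype nerve. Ndst3, a form known from brain, averaged 11.9 ± 2.85 CPM in knockout and 9.68 ± 3.88 CPM in wildtype nerve (SD, n = 3 each).

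Ndst4 and 3 other enzymes varied by animal far more than by genotype. Ndst4 was counted 2668, 82 and 37 times in the knockout libraries, against 2574, 400 and 119 times in the wildtype libraries, which is 35.2, 0.888 and 0.429 CPM in knockout nerve, against 30.9, 4.45 and 1.39 CPM in wildtype nerve. The replicate 1 library of each genotype was far above the others. Ndst4 made up 13.01% and 12.97% of the Ndst transcripts per kb in those 2 libraries, in knockout and wildtype nerve, and at most 2.78% in any other. Hs3st2 was counted 928, 22 and 2 times in the knockout libraries, against 1997, 686 and 14 times in the wildtype libraries. Hs6st3 was at 13.1, 1.12 and 0.777 CPM in knockout nerve, against 6.90, 1.02 and 4.28 CPM in wildtype nerve, and Xylt1, given above, was also highest in the 2 replicate 1 libraries. The SE of the log2 fold change was 1.15 to 2.02 for these 4, so a difference of several fold would not have been detectable. Without knockout replicate 1 the fold change of Ndst4 was -4.21 and that of Hs3st2 -6.31, with an adjusted p of 0.457 each (edgeR). Without wildtype replicate 1 the direction turned, to 2.05 for Ndst4 and 0.09 for Hs3st2. Over the 41 enzymes the median ratio of the highest to the lowest library was 1.65, against 1.71 over all genes with counts in every library.

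**Figure D3:**
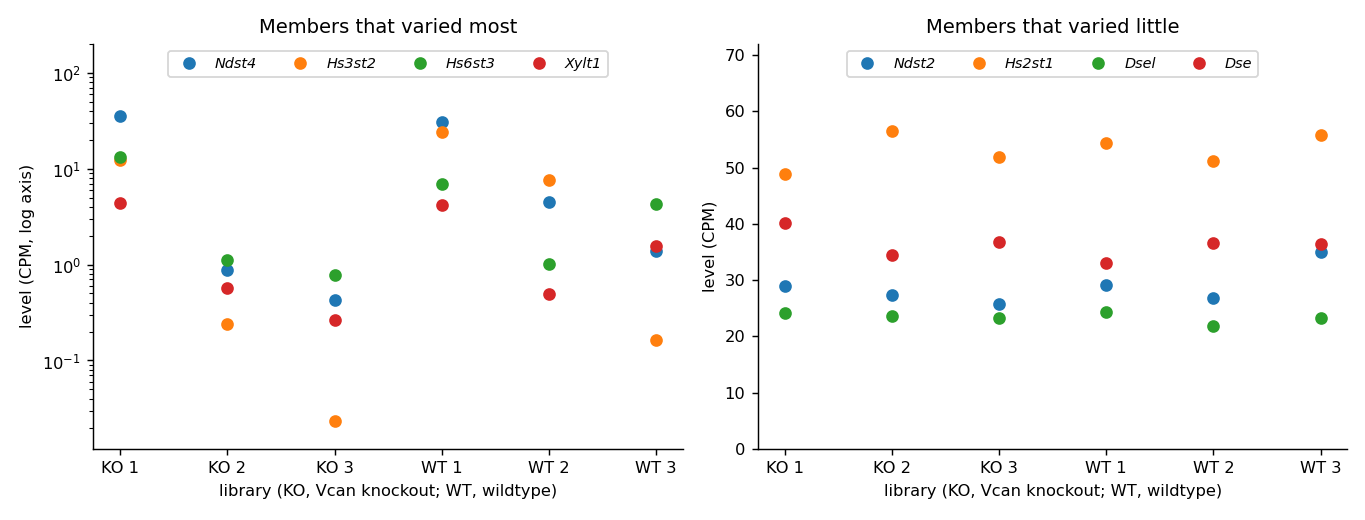
CPM in each library for the 4 enzymes that varied most (left, log axis) and for 4 that varied little (right, linear axis from 0). KO stands for Vcan knockout and WT for wildtype, numbered by replicate; Ndst4 is at 35.2 CPM in KO 1 and 30.9 CPM in WT 1 and below 5 CPM in the other libraries.

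Heparan chains are then epimerised by Glce and sulfated at carbon 2 of the uronic acid by Hs2st1, at carbon 6 of glucosamine by the Hs6st enzymes and at carbon 3 by the Hs3st enzymes. Hs3st1, which makes the sulfate needed for antithrombin binding, was the most abundant of this group per kb. The gene (gene identifier 15476, chromosome 5, 39613935 to 39645592, GRCm38) was at 57.3, 70.4 and 88.8 CPM in knockout nerve, against 43.0, 47.2 and 48.2 CPM in wildtype nerve. The lowest knockout library lay above the highest wildtype library, and the wildtype libraries were close together. The log2 fold change was 0.65 (SE 0.18) and did not pass over all genes (edgeR adjusted p = 0.602, unadjusted p = 0.00997; DESeq2 adjusted p = 0.141). Its unadjusted p stayed under 0.05 in all 12 alternative fits, with the fold change from 0.46 to 0.79. Markers of endothelium, 2 of 4 with a negative fold change, summed to 166, 179 and 177 CPM in knockout nerve, against 149, 150 and 144 CPM in wildtype nerve, also without overlap. Cldn5 had the largest fold change of the 4 (log2 fold change 0.94). Its own groups overlapped, with knockout replicate 1 at 42.5 CPM and wildtype replicate 2 at 49.1 CPM. The part of endothelium in the Hs3st1 value was not tested. In the authors' deposited table its adjusted p was 0.181 at a log2 fold change of 0.55.

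For Hs2st1 and Hs6st1 the groups overlapped. Hs2st1 was at 48.8, 56.6 and 51.9 CPM in knockout nerve, against 54.4, 51.1 and 55.9 CPM in wildtype nerve, and Hs6st1 at 51.2, 68.1 and 64.7 CPM in knockout nerve, against 63.0, 59.8 and 59.4 CPM in wildtype nerve. Per kb, Hs3st1 was 4.32, 4.58 and 6.29 times Hs2st1 in the knockout libraries, against 2.91, 3.40 and 3.17 times in the wildtype libraries. Glce averaged 34.0 ± 4.91 CPM in knockout and 36.2 ± 7.24 CPM in wildtype nerve (SD, n = 3 each). Hs6st2 (gene identifier 50786, chromosome X, 51386637 to 51681705, GRCm38) was at 4.97, 2.94 and 2.83 CPM in knockout nerve, against 4.98, 5.84 and 5.56 CPM in wildtype nerve. The groups touched, since knockout replicate 1 lay just under wildtype replicate 1. The log2 fold change of -0.61 (SE 0.28) did not pass (edgeR adjusted p = 1.00, unadjusted p = 0.0689; DESeq2 unadjusted p = 0.0481). Without knockout replicate 1 it was -0.92.

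Sulf1 and Sulf2 are secreted endosulfatases that remove sulfate at carbon 6 from finished heparan chains. Sulf1 (gene identifier 240725, chromosome 1, 12692197 to 12861192, GRCm38) was at 113, 83.6 and 83.9 CPM in knockout nerve, against 116, 118 and 182 CPM in wildtype nerve. All knockout libraries lay below all wildtype libraries, knockout replicate 1 only just. The log2 fold change was -0.57 (SE 0.23) and did not pass (edgeR adjusted p = 0.891, unadjusted p = 0.0409). It was -0.34 without wildtype replicate 3. Fibroblast markers, 5 of 5 with a negative fold change (Pdgfrb at -0.00), summed to 1390, 1570 and 1420 CPM in knockout nerve, against 1900, 1790 and 1600 CPM in wildtype nerve. The sums did not overlap, and the markers differed in their order over the libraries. Sulf1 was highest in knockout replicate 1 and wildtype replicate 3 within each genotype. So were Lum (81.0 and 126 CPM) and Pdgfrb (115 and 110 CPM). Col1a2 (486 and 488 CPM) and Dcn (576 and 800 CPM) were lowest in those libraries, and Col1a1 was highest in replicate 1 of each genotype. The part of fibroblasts in the Sulf1 value was not tested. Sulf2 was at 76.7, 52.8 and 50.5 CPM in knockout nerve, against 104, 72.1 and 46.2 CPM in wildtype nerve, and its groups overlapped.

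The endosulfatases were set against the Hs6st enzymes whose product they remove. Per kb, Sulf1 and Sulf2 together were 1.31, 1.23 and 1.28 times the 3 Hs6st transcripts in the knockout libraries, against 1.75, 1.88 and 1.72 times in the wildtype libraries. The mean was 1.28 ± 0.0412 in knockout and 1.78 ± 0.0834 in wildtype nerve (SD, n = 3 each). The Sulf sum averaged 18.5 ± 3.95 CPM per kb in knockout and 24.9 ± 2.76 CPM per kb in wildtype nerve, and the Hs6st sum 14.5 ± 2.72 in knockout and 14.0 ± 1.96 in wildtype nerve. Without division by length the ratio was 2.20 ± 0.467 in knockout and 3.03 ± 0.232 in wildtype nerve (SD, n = 3 each), and the nearest libraries were at 2.73 in knockout and 2.86 in wildtype nerve. The value per kb gives weight to Hs6st3, whose exons span 1708 bases against 5542 for Hs6st1, and which made up 43.8% of the Hs6st sum in knockout replicate 1. This ratio and that of Hs3st1 to Hs2st1 were the 2 of 11 enzyme ratios whose groups did not overlap; among single genes the share without overlap was 10.3%. The ratios were chosen after the values were seen and are given as a description, with no test.

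The chondroitin and heparan branches were nearly equal between the genotypes when levels per kb were summed. Summed per kb, the 16 chondroitin and dermatan enzymes were at 110, 115 and 115 CPM per kb in knockout nerve, against 111, 110 and 114 CPM per kb in wildtype nerve. The 18 heparan enzymes were at 178, 162 and 176 CPM per kb in knockout nerve, against 183, 162 and 166 CPM per kb in wildtype nerve. The ratio of the chondroitin to the heparan sum averaged 0.660 ± 0.0448 in knockout and 0.658 ± 0.0436 in wildtype libraries (SD, n = 3 each), a difference far within the spread. In the heparan sum, Hs3st1 was at 32.3 CPM per kb in knockout and 20.7 in wildtype nerve, Sulf1 at 8.27 and 12.3, and Ndst1 at 7.46 and 10.3. Without division by length the heparan sum averaged 856 ± 77.7 CPM in knockout and 924 ± 71.0 CPM in wildtype nerve. That ratio was then 0.619 ± 0.0558 and 0.574 ± 0.0369, with groups that overlapped. Gene by gene, 11 of 16 chondroitin enzymes had a positive fold change with a median of 0.09, while 12 of 18 heparan enzymes were below 0 (median -0.10). The heparan median was -0.20 without knockout replicate 1, -0.22 without wildtype replicate 2 and -0.00 without wildtype replicate 1, while the chondroitin median was 0.04 without knockout replicate 2, 0.16 without wildtype replicate 2 and 0.05 without wildtype replicate 3. With members weighted equally, as mean log2 levels, the chondroitin branch was 0.49 higher relative to the heparan branch in knockout nerve. That average includes Hs3st2 and Ndst4, whose lowest libraries were at 0.0232 and 0.429 CPM.

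**Figure D4:**
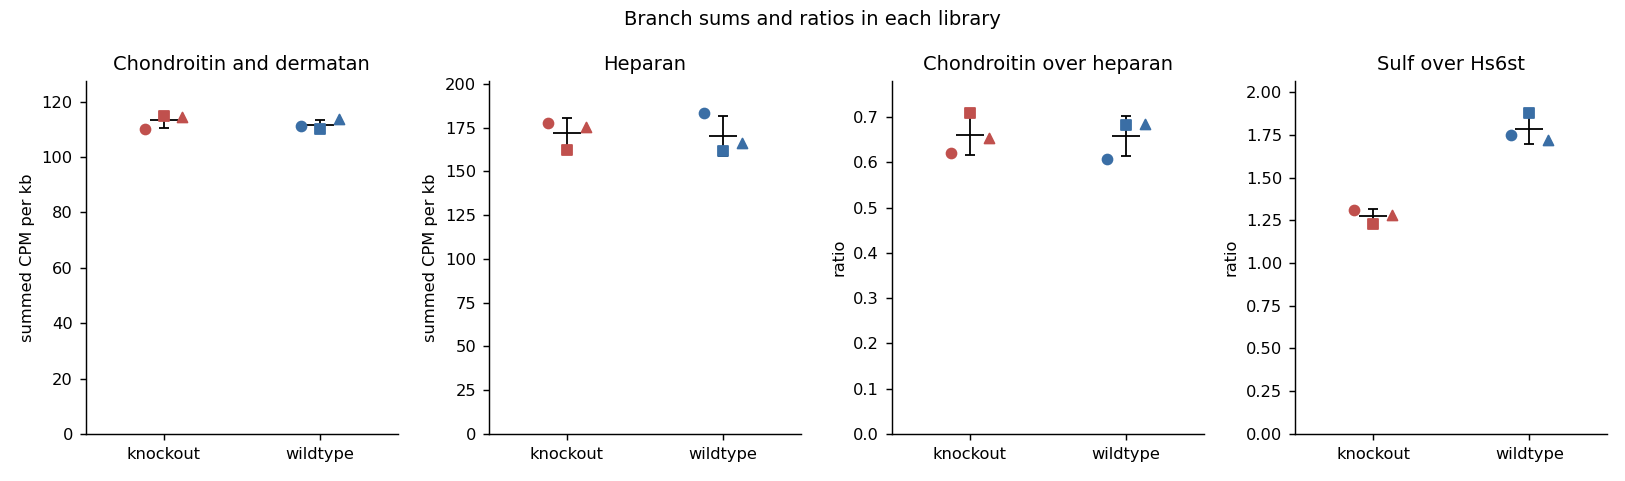
Summed level of the chondroitin and dermatan enzymes and of the heparan enzymes (CPM per kb), the ratio of the sums, and the ratio of Sulf1 and Sulf2 to the Hs6st enzymes, in each library (red, Vcan knockout, left; blue, wildtype, right; bars, mean and SD over 3 libraries). The branch ratio averages 0.660 in knockout and 0.658 in wildtype nerve, while the Sulf ratio is 1.23 to 1.31 in knockout and 1.72 to 1.88 in wildtype libraries.

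Other genes of the pathway, 36 in all, cover linker phosphorylation, nucleotide sugars and the sulfate donor, transporters, the remaining Hs3st genes, Chst10 and lysosomal breakdown. None passed in edgeR (0 of 36, against 0.138% of all genes), 4 were under an unadjusted p of 0.05, all lower (2.64% of all genes), and DESeq2 called 2 (1.43% of all genes). The median log2 fold change was -0.05, with 14 above 0 and 22 below, and the groups did not overlap for 6 of 36 (16.7%, against 10.3% of all genes), 1 higher (5.42%) and 5 lower (4.93%). The linker xylose kinase Fam20b averaged 179 ± 10.9 CPM in knockout and 174 ± 14.4 CPM in wildtype nerve, and the nucleotidase Cant1 65.9 ± 4.38 CPM in knockout and 66.7 ± 3.39 CPM in wildtype nerve (SD, n = 3 each). Ugp2, which makes UDP-glucose, averaged 102 CPM in knockout and 101 CPM in wildtype nerve, and Papss1, a synthase of the sulfate donor, 108 ± 1.79 CPM in knockout and 112 ± 6.43 CPM in wildtype nerve (SD, n = 3 each). Its relative Papss2 was at 15.5, 15.0 and 13.5 CPM in knockout nerve, against 17.2, 18.3 and 29.4 CPM in wildtype nerve, with no overlap and wildtype replicate 3 highest (edgeR adjusted p = 0.959). The sulfate transporter Slc26a2 was at 27.7, 4.95 and 4.43 CPM in knockout nerve, against 28.9, 11.7 and 28.4 CPM in wildtype nerve, and Slc35b2, the Golgi transporter of the sulfate donor, at 42.5 ± 8.56 CPM in knockout and 48.7 ± 10.7 CPM in wildtype nerve (SD, n = 3 each). The remaining 3-O-sulfotransferases were led by Hs3st5 (17.0 ± 1.47 and 14.5 ± 3.41 CPM) and Hs3st3b1 (8.01 ± 2.03 and 8.24 ± 0.834 CPM; knockout and wildtype, SD, n = 3 each).

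Among the 14 breakdown enzymes 11 had a fold change below 0 (median -0.19), and 4 had knockout libraries all below the wildtype libraries (28.6% without overlap, all lower, against 4.93% lower over all genes). Macrophage markers, 2 of 4 with a negative fold change, summed to 82.9 to 106 CPM in knockout and 113 to 125 CPM in wildtype nerve, and the fibroblast markers given above were also lower without overlap. All 6 astrocyte and all 6 oligodendrocyte markers had a negative fold change, with sums that overlapped (astrocyte 940 to 1260 CPM in knockout and 1220 to 1630 CPM in wildtype nerve; oligodendrocyte 2290 to 3690 CPM in knockout and 2690 to 5640 CPM in wildtype nerve). All 5 Schwann cell, 5 chondrocyte and 3 oligodendrocyte precursor markers also had a negative fold change, with sums that overlapped. The chondrocyte sums were 298 to 403 CPM in knockout and 357 to 453 CPM in wildtype nerve. All 3 osteoclast markers had a positive fold change. The part of these cells in the breakdown enzymes was not tested. Glb1, the lysosomal beta-galactosidase, was at 26.3, 25.5 and 28.1 CPM in knockout nerve, against 43.5, 42.1 and 45.7 CPM in wildtype nerve. The groups were well apart and tight within themselves. Its log2 fold change of -0.71 (SE 0.12) missed the threshold in edgeR (adjusted p = 0.167, unadjusted p = 0.00058) and passed it with DESeq2 (5.33e-05). The authors' deposited table gives an adjusted p of 0.000395. Arsg, a lysosomal sulfatase of heparan breakdown, was at 19.8, 20.4 and 16.4 CPM in knockout nerve, against 27.2, 32.7 and 34.6 CPM in wildtype nerve. Its log2 fold change was -0.74 (SE 0.16), with an adjusted p of 0.314 in edgeR, 0.00955 in DESeq2 and 0.0159 in the authors' deposited table. Arsb, which removes sulfate at carbon 4 from chondroitin and dermatan chains, was at 71.3, 69.9 and 62.9 CPM in knockout nerve, against 81.1, 80.1 and 92.2 CPM in wildtype nerve (edgeR adjusted p = 0.892). Arsb lies on chromosome 13 (93771679 to 93943016, GRCm38), as does Vcan itself (89655309 to 89743027). The part of this location in the Arsb value was not tested. Ids, which removes sulfate from iduronic acid, averaged 246 ± 18 CPM in knockout and 219 ± 15.1 CPM in wildtype nerve (SD, n = 3 each).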

How the data were processed

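Auditory nerve RNA of 3 Vcan knockout and 3 wildtype mice was sequenced from TruSeq libraries. The submitters' processing notes name the build mm10, HTSeq and DESeq2, and the deposited table has the column names that DESeq2 writes. Strand and multi-mapping settings of the counting are not stated there. The deposited values are raw counts per gene made by the authors. The same deposited table holds the authors' mean signal, log2 fold change, test score, p-value and adjusted p-value, used only where their table is named. Libraries held 74530860 to 92513887 counts, and SDs are over 3 mice, with dissection and library differences included.

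The 5 symbols on 2 identical rows were joined. Tests used edgeR 4.0.16 in R 4.3.3: filterByExpr (16722 genes), TMM scaling (factors 0.964 to 1.02), robust quasi-likelihood F tests, 2-sided, Benjamini-Hochberg adjustment over all genes. Each SE was the absolute fold change over the root of its F statistic. CPM is TMM-scaled; levels per kb use the union of GENCODE vM21 exons, and coordinates come from RefSeq GRCm38.p6, the assembly of mm10. The pipeline was tested on simulated data. No pair of libraries agreed within sampling noise (lowest chi-square per degree of freedom 41.2). The members and lists were chosen with earlier results of these data known. Values per library were given for enzymes with an unadjusted p under 0.05 or groups that did not overlap, and for the 2 of highest level per kb in each role; a few others were added after their values were seen, and 1 gene that the rule names is not reported here. Alternatives were DESeq2 1.42.0, other scalings, no filter, a replicate block and leaving out libraries.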

Additional observations from a re-analysis of the deposited data

How the results depend on the processing

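No enzyme of the set passed 0.05 in any of the 12 alternatives. The count over all genes was 23 in edgeR, 238 with DESeq2, 3 to 14 with 1 library left out, 3 with the replicate number as a block and 1 without the replicate 1 libraries of both groups, an alternative chosen after seeing the data. The replicate numbers come from the sample titles; the table's column names number the second and the third knockout library 3 and 4. The numbers did not pair the libraries throughout: deviations of same-numbered libraries correlated at 0.426, 0.216 and -0.151 for replicates 1, 2 and 3. Libraries with different numbers correlated at -0.485 to 0.368, so the replicate 1 libraries were the closest pair across the genotypes by this measure. The cause of these shifts was not tested.

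List medians of the log2 fold change, with 1 library left out, ran from -0.09 to 0.03 for the 41 enzymes, -0.11 to 0.03 for the linker (-0.16 with all libraries) 0.04 to 0.16 for the chondroitin branch and -0.22 to -0.00 for the heparan branch. Without both replicate 1 libraries they were -0.09, -0.03 and 0.01, with -0.24 for the heparan branch and -0.17 for the pathway list. The log2 branch ratio difference was 0.01, against 0.11 without division by length and 0.49 as mean log2 levels.

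Of the 41 enzymes 21 kept their sign in every alternative and 20 did not. With 1 library left out, fold changes ran from -2.29 to 0.78 (Xylt1), -0.04 to 0.07 (B4galt7), -0.30 to 0.02 (B3galt6), -0.34 to 0.02 (B3gat2), -0.02 to 0.28 (Chpf), -0.26 to 0.05 (Csgalnact2), -0.09 to 0.08 (Chst3), -0.08 to 0.24 (Chst7), -0.20 to 0.22 (Chst11), -0.27 to 0.65 (Chst13), -0.01 to 0.07 (Dsel), -0.11 to 0.10 (Ext2), -4.21 to 2.05 (Ndst4), -0.21 to 0.07 (Glce), -0.10 to 0.01 (Hs2st1), -6.31 to 0.09 (Hs3st2), -0.07 to 0.13 (Hs6st1), -2.10 to 0.92 (Hs6st3) and -0.56 to 0.02 (Sulf2). In the pathway list they ran from -0.07 to 0.04 (Cant1), -0.06 to 0.38 (Chst10), 0.00 to 0.11 (Fam20b), -0.18 to 0.15 (Hs3st3b1) and -0.08 to 0.17 (Ugp2). Without both replicate 1 libraries the sign also turned for Chst3 (-0.02), Chst7 (-0.04), Dse (-0.05), Ext2 (-0.09), Hs2st1 (0.01), Cant1 (0.06) and Hs6st3 (-1.50). With the block it turned for Hs6st3 (-0.39), Chst3 (-0.00) and Ugp2 (-0.00), and Chst3 was -0.00 in DESeq2 and -0.01 with no filter. Ndst4 was 0.00 with upper-quartile scaling. Depth limits Chst13, at 10 to 60 counts, and Hs3st2, at 2 counts in its lowest library.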

Other observations

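Heparanase (Hpse), the enzyme that cuts heparan sulfate chains and a member of the breakdown list named here after its values were seen, was at 4.20, 43.4 and 1.59 CPM in knockout nerve, against 6.44, 26.7 and 341 CPM in wildtype nerve. The highest library of all was wildtype replicate 3, followed by knockout replicate 2 and wildtype replicate 2. The 4 melanocyte markers (Tyr, Dct, Pmel and Mlana) summed to 15.0, 232 and 22.0 CPM in knockout nerve, against 9.01, 50.3 and 1380 CPM in wildtype nerve, and the same 3 libraries led in the same order. Dct made up most of the sum (1270 CPM in wildtype replicate 3). Of the 4 markers 3 had a negative fold change, while Pmel was at 14.0, 10.6 and 16.8 CPM in knockout nerve, against 7.70, 5.83 and 10.2 CPM in wildtype nerve, and did not follow that order. The part of pigment cells in the Hpse value was not tested. The log2 fold change of Hpse was -2.92 (SE 1.72) and did not pass (edgeR adjusted p = 1.00).

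Slc26a2 and Ndst1 shared a pattern over the libraries. Both were high in knockout replicate 1 and in wildtype replicates 1 and 3, and low in knockout replicates 2 and 3. Ndst4, Hs3st2, Hs6st3 and Xylt1 were high in the replicate 1 library of both genotypes, and the oligodendrocyte precursor markers (Pdgfra, Cspg4 and Gpr17) were at 185, 116 and 124 CPM in knockout nerve, against 154, 135 and 178 CPM in wildtype nerve. No list of cell type markers had its highest sums in the 2 replicate 1 libraries together. Some single markers did, such as Col1a1 (137 CPM in knockout and 142 CPM in wildtype replicate 1) and L1cam (133 and 149 CPM), while most did not. The part of any cell type in these values was not tested.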
